A study of Homo sapiens with 15 samples.

Results

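A xenograft tumour is a mixture of 2 species. The transplanted cells are human, and the vessels, connective tissue and infiltrating blood cells that feed and surround them come from the mouse, so that reads counted on mouse genes stand for host cells. Host macrophages, fibroblasts and endothelial cells are known to shape tumour growth, and restraint of rodents is known to raise adrenal glucocorticoids and sympathetic catecholamines, which can act on all of these cells. The rows analysed here are the 56941 of 117590 rows of the deposited count table whose identifier is a mouse Ensembl gene. Of these rows, 27245 had no count in any library, 16174 had counts too low to test and 13522 were tested.

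The tumours grew under the skin of BALB/c nude mice from A549, an established cell line of human lung adenocarcinoma. Nude mice have no thymus and so no mature T cells, but they keep macrophages, neutrophils, natural killer cells and B cells. Unrestrained animals formed the no-stress group (n = 5). Animals of the stress group (n = 5) were restrained, per the labels, 7 days before transplantation, and those of the post-stress group (n = 5) 12 days after it. The labels leave unsaid whether 7 and 12 are durations or starting days. The sources used here do not give the age or sex of the animals, the hour of collection or the time from the last restraint to collection. The question was how host expression in the 10 tumours of restrained animals, read as 1 set, differed from that in the 5 tumours of unrestrained animals.

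The mouse rows carry identifiers only, and the references used here paired 0 of them with a symbol. Genes are therefore counted, and at most 2 that rose and 2 that fell are given by identifier, with no role stated. The macrophage, fibroblast, endothelial and other cell type markers could not be looked up for the same reason, so that the makeup of the host cells was not tested. In a bulk sample, fewer cells of a type and less RNA per cell cannot be told apart.

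Mouse counts per library ranged from 2119772 to 5937694 (median 3578892), and 17316 to 22002 mouse genes had at least 1 count. Mouse counts took 22.6% ± 6.65 (SD, n = 5) of all counts without stress and 19.3% ± 4.06 (SD, n = 10) with any restraint, a difference of −3.24 percentage points (exact 2-sided permutation p = 0.258). The first principal component of mouse log2 CPM, counts scaled to the mouse library size, held 26.5% of the variance and moved with this share. Over 15 libraries Pearson's r between the component and the share was −0.78 (permutation p = 6e-04) and Spearman's rho −0.78 (permutation p = 0.001). Without no-stress replicates 1 and 5, the libraries farthest from the median share, r was −0.69. After subtraction of the group means r was −0.75 (permutation within groups, p = 0.002) and rho −0.68 (permutation within groups, p = 0.009), and r was −0.71 without the same libraries. Post-stress replicate 1, with the lowest share at 12.4%, stood at 1 end of the component. No-stress replicates 1 and 5 stood at the other, next to stress replicate 4, whose share of 21.8% was near the middle.

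**Figure D1:**
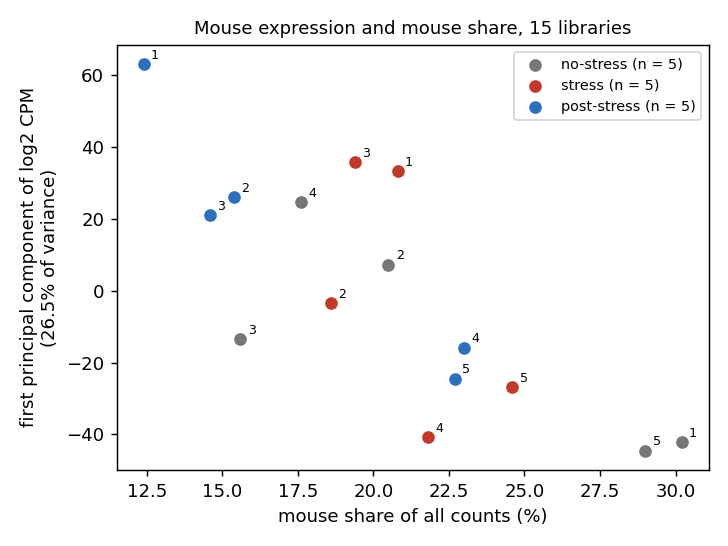
First principal component of mouse log2 CPM (vertical axis) against the mouse share of all counts in percent (horizontal axis); each point is 1 library, coloured by group and numbered by replicate. The component falls as the share rises, and the 3 groups overlap along both axes.

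With both restrained groups read as 1 set, a small number of host genes passed the test, most of them higher. In the 10 restrained libraries against the 5 unrestrained ones, 71 of 13522 tested mouse genes were called (0.525%). A call here is a Benjamini-Hochberg adjusted p under 0.05 in the quasi-likelihood test of edgeR. Of the 71, 54 rose (0.399%) and 17 fell (0.126%). The genes that rose did so by 1.41-fold to 7.14-fold with a median of 2.18-fold, and 33 of them at least 2-fold. The genes that fell reached 0.260-fold to 0.720-fold of the unrestrained level with a median of 0.468-fold, and 9 of them fell at least 2-fold. At least 4-fold changes were seen in 4 genes, all higher. At an unadjusted p under 0.05 there were 1412 genes (10.4% of those tested), 743 higher and 669 lower. Over all tested genes the median log2 fold change was −0.01, with quartiles at −0.17 and 0.13, against a median SE of 0.18.

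The threshold fell in a continuous range of p-values. The last gene inside had an adjusted p of 0.0486 and the first outside 0.0524, and 125 genes had an adjusted p under 0.1. Calls were more frequent among abundant genes, whose fold changes are measured more precisely. In the tertile of genes with the lowest level 9 of 4508 were called (0.2%, median SE 0.3 on the log2 scale), in the middle tertile 23 of 4507 (0.51%, median SE 0.15) and in the highest tertile 39 of 4507 (0.865%, median SE 0.13). In the lowest tertile 3 of the called genes were higher and 6 lower. The numbers were 19 and 4 in the middle tertile and 32 and 7 in the highest. The 54 higher genes had a median logCPM of 6.2 and the 17 lower genes of 5.51, against 4.83 for all tested genes.

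The groups were apart for many of the called genes, as the plot of these genes by library shows. The 10 restrained libraries lay wholly outside the range of the 5 unrestrained ones for 67 of all tested genes (0.495%, beside 0.525% called), 48 above and 19 below. Among the 71 called genes this held for 37, of which 29 were higher and 8 lower. Summed over the 54 higher genes, the share of mouse counts was 0.299% to 0.373% without stress, 0.691% to 0.929% with stress and 0.565% to 0.81% with post-stress. Summed over the 17 lower genes it was 0.11% to 0.134%, 0.0601% to 0.0795% and 0.062% to 0.0764% in the same order. These sums, and the separation of the called genes, describe genes chosen by the test and add no support to it. Among the restrained libraries, post-stress replicate 5 had the lowest sum of the higher genes and stress replicate 3 the highest sum of the lower ones.

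**Figure D2:**
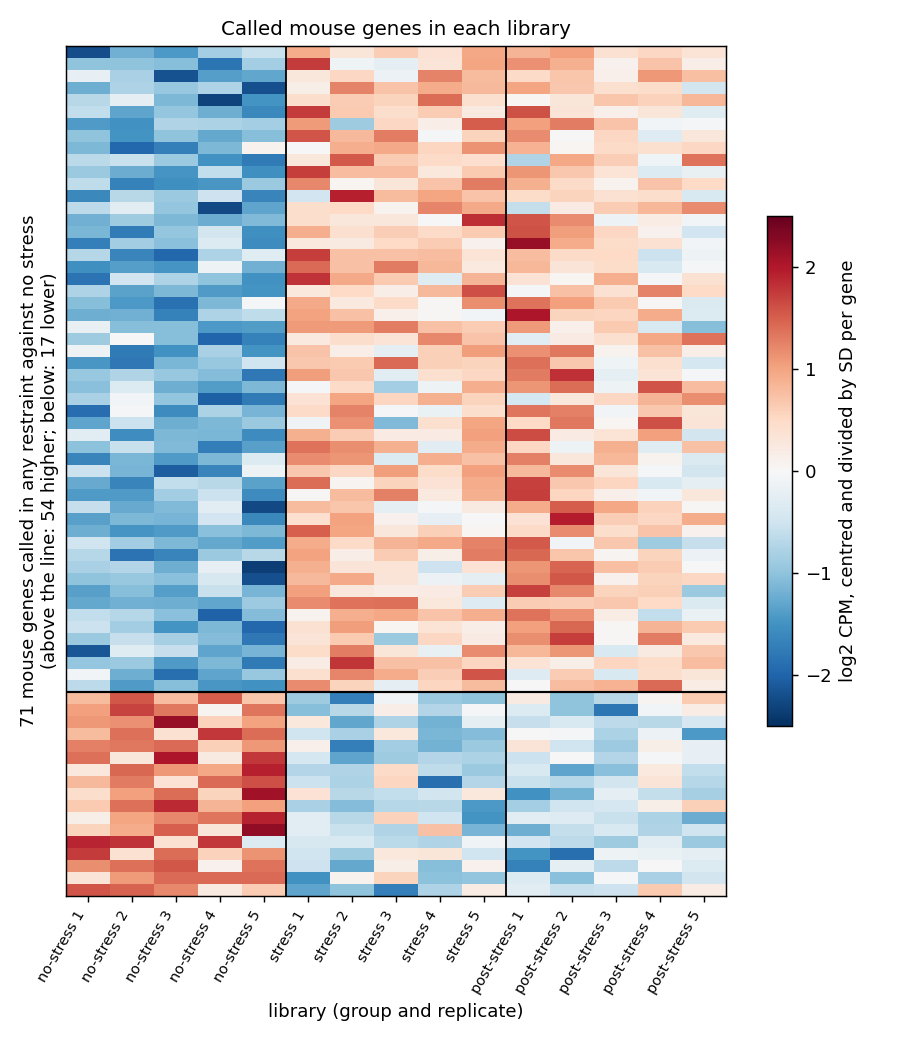
Log2 CPM of the 71 called mouse genes (rows, sorted by fold change), each centred and divided by its SD over the 15 libraries (columns); red is above and blue below the gene's mean. Of the 54 genes above the line 53 are below their mean in all 5 no-stress libraries, and of the 17 below it 16 are above their mean there. The genes were chosen by the test on these same libraries, which favours this pattern.

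The identifier with the largest increase was ENSMUSG00000026358.14. Its CPM in no-stress replicates 1 to 5 were 5.64, 18.3, 14.0, 27.2 and 37.6. With stress they were 194, 97.9, 139, 104 and 204, and with post-stress 178, 217, 107, 123 and 102. Every restrained library was thus above every unrestrained one, and the lowest restrained value (97.9) exceeded the highest unrestrained value (37.6) by more than the whole unrestrained range. The mean rose from 20.5 ± 12.3 (SD, n = 5) to 147 ± 46.9 CPM (SD, n = 10), with a log2 fold change of 2.84 (SE 0.39, edgeR adjusted p = 0.0111). Against no stress the log2 fold change was 2.85 (SE 0.42, edgeR adjusted p = 0.0126) for stress and 2.82 (SE 0.42, edgeR adjusted p = 0.036) for post-stress. The log2 difference between the restrained groups was 0.03 (SE 0.39). The identifier was chosen for its increase in the mean of both groups, and both comparisons share the no-stress libraries. The separation and the values by group therefore add no support to the call. The same holds for the other identifiers given below.

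The second, ENSMUSG00000003545.4, came from a low level. The CPM without stress were 3.92, 3.98, 3.74, 1.66 and 4.60. They were 47.0, 9.25, 8.29, 13.5 and 24.5 with stress and 28.1, 22.2, 11.2, 19.2 and 11.8 with post-stress. The groups did not overlap, although stress replicate 1 stood far above the other restrained libraries. The mean rose from 3.58 ± 1.12 (SD, n = 5) to 19.5 ± 11.8 CPM (SD, n = 10), 5.28-fold (log2 fold change 2.40, SE 0.44, edgeR adjusted p = 0.0251). Leaving out any of the 5 no-stress libraries or post-stress replicate 2 ended this call (edgeR adjusted p 0.0515 to 0.0795), as did limma-voom (adjusted p = 0.126).

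Among genes that fell, ENSMUSG00000018924.7 had the largest decrease and few counts. The CPM without stress were 10.8, 9.82, 7.83, 3.32 and 4.79, from 10 to 69 counts. They were 0.588, 0.895, 0.286, 1.21 and 3.19 with stress and 2.04, 1.53, 1.60, 4.92 and 3.19 with post-stress, from 1 to 19 counts. Of the restrained libraries 9 were below every unrestrained one, and post-stress replicate 4 overlapped with no-stress replicates 4 and 5. The log2 fold change was −1.94 (SE 0.41, edgeR adjusted p = 0.0472), and in 13 of the 15 fits with a library left out the gene did not pass (edgeR adjusted p up to 0.158). It did not pass either with DESeq2 size factors (edgeR adjusted p = 0.0502), the stricter filter of CPM at least 1 in 5 libraries (0.0547), the replicate block (0.123), the mouse to human ratio as a covariate (0.072) or the restrained libraries as 1 group (0.0806).

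ENSMUSG00000021200.15 fell from 24.9 ± 6.50 (SD, n = 5) to 8.62 ± 3.81 CPM (SD, n = 10). Its CPM without stress were 14.3, 23.1, 28.9, 29.2 and 29.1. With stress they were 4.12, 12.2, 16.6, 5.80 and 5.95, and with post-stress 9.18, 5.74, 11.2, 6.73 and 8.60. Again 9 restrained libraries were below every unrestrained one, and stress replicate 3 was above no-stress replicate 1. The log2 fold change was −1.53 (SE 0.28, edgeR adjusted p = 0.0251). Against no stress it was −1.48 (SE 0.33) for stress and −1.59 (SE 0.34) for post-stress. The call with any restraint was lost in 5 of the 15 fits with a library left out, at an edgeR adjusted p up to 0.0867.

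**Figure D3:**
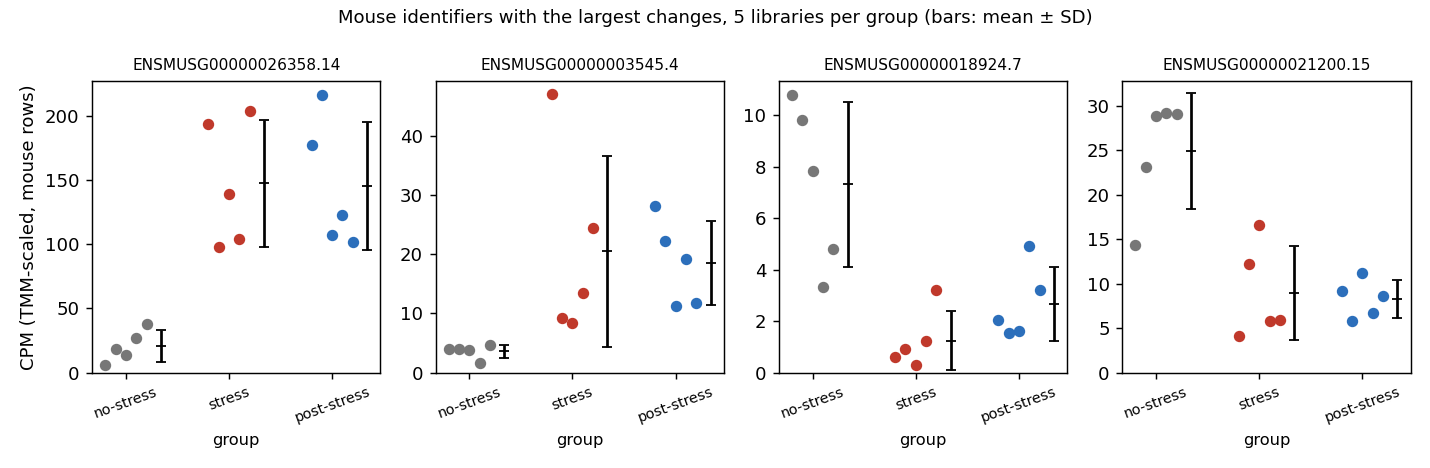
CPM (vertical axes, from 0) of the 4 identifiers by group; points are single libraries and bars the mean ± SD of 5 libraries. The first 2 identifiers show no overlap between unrestrained and restrained libraries, and in the other 2 a single restrained library reaches into the no-stress range.

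Taken separately, the restrained groups gave fewer calls, and these comparisons share the 5 no-stress libraries. Stress against no stress called 32 genes (0.237%), 28 higher (0.207%) and 4 lower (0.0296%). Post-stress against no stress called 5 genes (0.037%), all higher (0.037%), with 0 lower (0%). At an unadjusted p under 0.05 the numbers were 1354 and 1213. The 54 genes called higher with any restraint had a median log2 fold change of 1.09 with stress and 1.05 with post-stress, and the 17 called lower had −0.89 and −0.86. All 71 had the same direction in both restrained groups and an unadjusted p under 0.05 in each, which their choice on the mean of both groups favours.

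The direct comparison of the restrained groups called no host gene. Stress against post-stress called 0 of 13522 genes (0%) with edgeR, at a smallest adjusted p of 0.743. It also called 0 with limma-voom, at a smallest adjusted p of 0.936. DESeq2's Wald test called 0 as well, but its smallest adjusted p of 0.052 was just above the threshold. At an unadjusted p under 0.05 there were 876 genes with edgeR (6.48%). Of the 71 genes called with any restraint, 5 had an unadjusted p under 0.05 in this comparison, and their log2 differences between the restrained groups were 0.26 to 0.59 in size. A p above the threshold does not show that the groups were alike, and the median SE of this difference was 0.21 on the log2 scale.

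The number of called genes depended on single libraries. Without no-stress replicate 3 only 3 of the 71 calls were left. No-stress replicates 1, 2, 4 and 5 left out in turn gave 33, 29, 32 and 21 calls, stress replicates 1, 2 and 5 gave 37, 27 and 43, and post-stress replicates 1, 2 and 3 gave 48, 28 and 47. Without stress replicates 3 and 4 there were 60 and 54 calls, and without post-stress replicates 4 and 5 there were 98 and 105. With no-stress replicates 1 and 5 both left out, the libraries with the highest mouse share, 5 calls were left. In each of these fits all 71 genes kept their direction, which their choice on mostly the same libraries favours. ENSMUSG00000026358.14 lost its call only without no-stress replicate 3 (log2 fold change 2.73, edgeR adjusted p = 0.0555). The 5 calls of post-stress against no stress went to 0 in 7 of the 15 such fits, and rose to 37 without post-stress replicate 5. Stress against no stress had 2 to 48 calls.

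**Figure D4:**
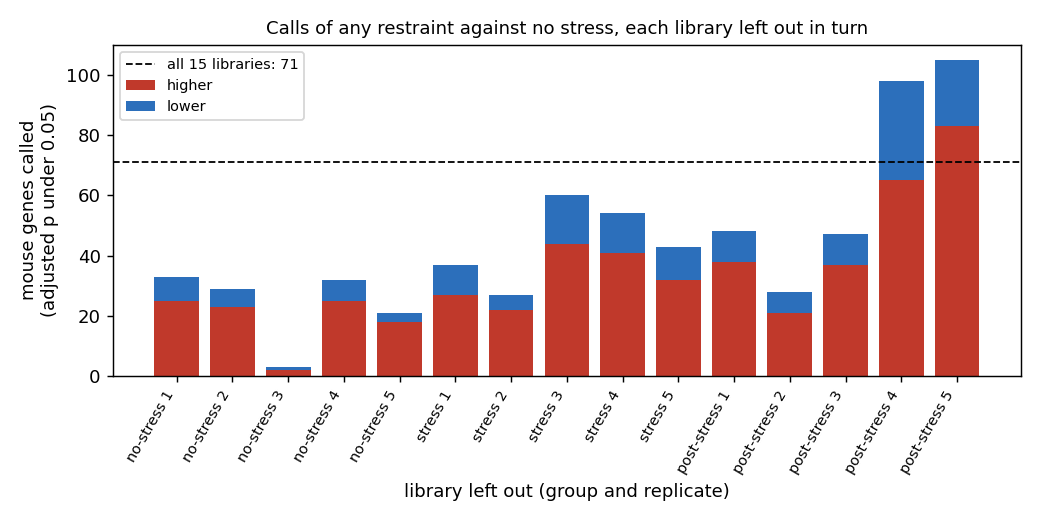
Number of mouse genes called in any restraint against no stress (vertical axis, stacked by direction) when each of the 15 libraries is left out in turn (horizontal axis); the dashed line marks the 71 calls of all libraries. The number lies between 3, without no-stress replicate 3, and 105, without post-stress replicate 5.

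Since the mouse share varied between tumours, its relation to the same genes is given beside these counts. With the log2 ratio of mouse to human counts as a further term in the fit, the calls were 47, of which 38 were among the 71. That term itself passed the test for 803 of 13522 genes (5.94%), for 1 of the 54 higher genes and for 0 of the 17 lower genes. At an unadjusted p under 0.05 it did so for 2694 of the 13522 genes, for 12 of the 54 higher genes and for 0 of the 17 lower genes. For a gene read only from human RNA, a constant share of human counts would give a slope near −1 on this ratio. Whether any such share was constant was not checked. The median slope was −0.17 for the higher genes, 0.08 for the lower and 0.04 for all tested genes. The lowest among the called genes was −0.86. Slopes were negative for 36 of the 54 higher genes, 4 of the 17 lower genes and 6141 of the 13522 tested genes. Of the 803 genes for which the term passed, 664 had a negative slope. The slope was −0.11 for ENSMUSG00000026358.14 (edgeR adjusted p = 0.923), 0.09 for ENSMUSG00000003545.4 (0.943), 0.88 for ENSMUSG00000018924.7 (0.313) and −0.52 for ENSMUSG00000021200.15 (0.403). Whether human reads on conserved sequence contributed to single genes was not tested.

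Cell cycle genes were the only lists that could be matched by identifier. They came from the marker pairs for mouse cells in the scran package, from which the 40 strongest S phase genes and the 40 strongest G2M genes were taken. Genes of S phase are switched on while DNA is copied and those of G2M before and during division. Both are commonly read as a sign of cycling cells. The lists were ranked by the marker pairs alone, so that a member need not have such a role. Of the S phase genes all 40 were tested, and 0 passed in either direction with any restraint, against 0.525% of all tested genes. At that share, 0 calls do not set a list of this size apart from the other genes. At an unadjusted p under 0.05, 4 were higher and 3 lower. Over all 13522 tested genes 743 were higher and 669 lower at this threshold (10.4%). Their median log2 fold change was 0.05, and −0.01 over all tested genes. Of 39 tested G2M genes 0 passed as well (0 higher and 2 lower unadjusted), with a median of −0.08 and 11 positive against 28 negative fold changes.

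The summed level of the S phase list nevertheless lay higher in most restrained libraries. It was 1492 to 1602 CPM without stress (median 1536), 1595 to 1778 with stress (median 1722) and 1579 to 1947 with post-stress (median 1702). Most of this difference lay in 1 member, chosen here for having the largest fold change of the list. Whether this member has a role in S phase was not looked up. That gene stood at 39.8 to 139 CPM without stress (median 54.4), 82.6 to 309 with stress (median 178) and 140 to 328 with post-stress (median 221), and did not pass (log2 fold change 1.58, SE 0.34, edgeR adjusted p = 0.0605). Without it, the other 39 genes summed to 1474 ± 35.4 CPM (SD, n = 5) without stress and 1506 ± 49.8 CPM (SD, n = 10) with any restraint. The G2M list summed to 1101 ± 101 CPM (SD, n = 5) and 1096 ± 134 CPM (SD, n = 10), a difference smaller than the spread within either group.

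**Figure D5:**
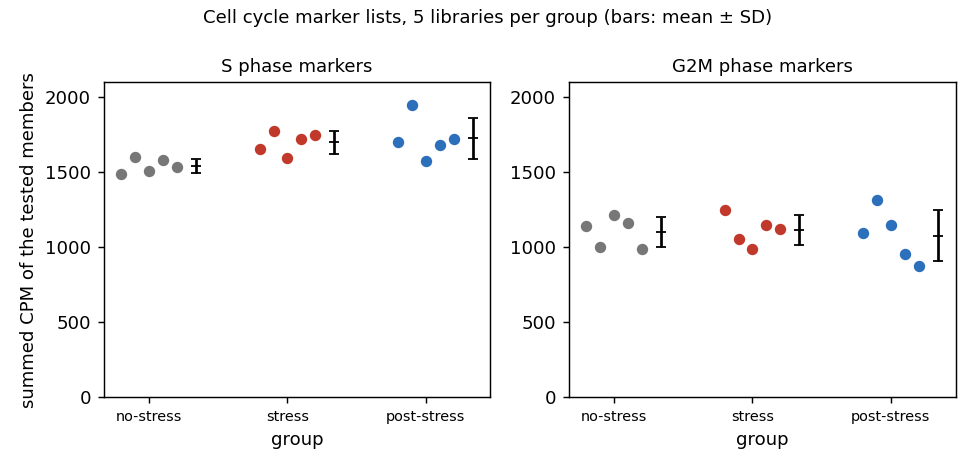
Summed CPM of the tested members of the S phase list (left) and the G2M list (right) by group; points are single libraries and bars the mean ± SD of 5 libraries, with both axes from 0. The S phase sums of most restrained libraries lie above the no-stress range of 1492 to 1602, and the G2M sums of the 3 groups overlap.

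The tumour cells in the same libraries gave a higher share of calls. The same contrast on human rows called 1138 of 15435 genes (7.37%), 553 higher and 585 lower. Human rows held 12877165 to 15892705 counts per library and had a biological coefficient of variation of 0.187, against 0.308 for mouse rows. Depth and spread thus differed between the species along with the share called, and the difference in share was not tested.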

How the data were processed

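RNA of 15 tumours was analysed, 5 per group. The deposited table holds raw counts per gene on human and mouse rows. The authors trimmed reads with Trimmomatic (0.39), aligned them with HISAT2 (2.2.1) to hg38 and mm10 and counted with featureCounts (2.0.6), per the submitters' processing notes. The sources used here do not give the strand, the annotation release or whether reads were aligned to both genomes jointly, and antisense genes and near-identical copies are therefore uncertain.

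Mouse rows alone set library sizes, TMM scaling and CPM. Genes passing filterByExpr entered a single edgeR (4.0.16) quasi-likelihood fit of the 3 groups with robust dispersions in R (4.3.3). Any restraint is the mean of the stress and post-stress coefficients minus no stress. The SE is the log2 fold change divided by the square root of F. Total counts per library were 16729091 to 19680449. The replicates of a group differed by more than counting noise in all 30 pairs (chi-square per degree of freedom 6.6 to 39.3 in mouse genes with enough counts).

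Named identifiers have the largest called increases and decreases at a logCPM of at least 1, at most 2 each. The mouse lists written by symbol were not run. Cell cycle lists came from scran (1.30.0) as the 40 genes per phase with the largest excess of first over second places in its marker pairs. Log2 CPM used a prior count of 2. Alternatives were DESeq2 (1.42.0) size factors and Wald test, limma-voom (limma 3.58.1), other filters, groupings and covariates, and each library left out. The comparison, lists and members were chosen with earlier results of these data known. The procedure was tested on simulated data.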

Additional observations from a re-analysis of the deposited data

Results flagged for a closer look

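Among the 28 sets of libraries examined for a value far from the rest (the mouse share, the 4 identifiers and the 2 cell cycle sums, in each group and in the 10 restrained libraries together), 1 stood out, where chance gives about 1 in 20. Stress replicate 1 had 47.0 CPM of ENSMUSG00000003545.4, and its gap to the next restrained library was 0.488 of the range of the 10. Without this library the log2 fold change of the gene was 2.11 (edgeR adjusted p = 0.0166).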

How the results depend on the processing

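All 71 genes called with any restraint kept their direction under every alternative fit. Their choice by the test on these same libraries favours this, so it adds no support. With any restraint the calls were 265 with DESeq2's Wald test (68 of the 71 among them), 45 with the replicate block (35), 47 with the mouse to human ratio as a covariate (38), 42 at a log2 fold change of at least 1, and 5 with no-stress replicates 1 and 5 both left out, which was decided after seeing the data. They were 63 to 82 with DESeq2 size factors, limma-voom, other filters or the restrained libraries as 1 group. Stress against no stress had 170 calls with the Wald test, 57 with the ratio and 5 without no-stress replicates 1 and 5. Post-stress against no stress had 157 with the Wald test, 14 without a filter, 28 with the replicate block, 0 with only the libraries compared (1052 at an unadjusted p under 0.05) and 3 without no-stress replicates 1 and 5. Leaving out each library gave 3 to 105 calls with any restraint, 2 to 48 with stress and 0 to 37 with post-stress. The causes were not tested. Stress against post-stress had 0 calls in each fit run for it, which were the tools, filters, block, ratio and fold settings and each library left out. The mouse share differed by −4.98 to −1.34 points. Correlations of deviations did not show pairing by replicate number. Of 15 same-numbered pairs 5 had a correlation over 0.1 (median −0.03), and 0 of 15 libraries correlated best with its own number. Whether libraries of the same number shared a batch was not tested. The share without mitochondrial genes was not run. Low mouse depth limits what can be seen at low levels.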
